A study of Sus scrofa domesticus with 6 samples.

Results

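The genes described are 6 secreted defence genes of the airway lining: SCGB1A1, WFDC2, SLPI, LCN2, PIGR and DEFB1. They were chosen by exact feature name in the deposited count matrices, and all 6 were found among the 33025 features of the series. All 6 are listed in 5 of the 6 libraries, and the first CD45+ library does not list DEFB1. Each library lists only genes with at least 1 UMI in it, and genes can also have been removed, so DEFB1 is given no value in that library.

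The airway surface is kept clean by a fluid into which lining cells pour protective proteins. SCGB1A1 is the club cell secretoglobin and the classic product of the secretory cell of the small airways. WFDC2 and SLPI belong to the whey acidic protein family, and SLPI blocks neutrophil elastase. LCN2 binds bacterial siderophores and so withholds iron, and it is made by epithelium and stored in neutrophil granules. PIGR is the receptor that carries polymeric IgA and IgM across the epithelium, and DEFB1 is an antimicrobial beta-defensin peptide.

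Single cells of domestic pig lung (Sus scrofa domesticus) were captured in droplets and their RNA sequenced, in a single-lung transplant model of ischemia-reperfusion injury (IRI). There are 1 IRI CD45- library and 2 IRI CD45+ libraries, all of grafts after 24 h of cold ischemia and 8 h of reperfusion, sorted on the leukocyte antigen CD45 and a viability dye. The 3 control libraries are unsorted suspensions of donors' right lungs, taken after retrograde perfusion. No control was sorted, so injury, transplantation and sorting cannot be told apart in any comparison, and every structural comparison rests on 1 graft library. The labels do not say whether the CD45- and CD45+ libraries came from the same graft, nor which control belongs to which graft.

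Total counts per library ran from 19098567 to 40647380 UMIs (unique molecular identifiers, which count RNA molecules), and 40824 cells remained after filtering. The smallest barcode held 1001 UMIs in each control and 74 to 117 UMIs in the IRI libraries, and the 13 mitochondrial genes were listed in the controls but not in the IRI libraries. Cells were grouped into 53 clusters and named from fixed markers into 17 classes, without the 6 genes among the clustering or marker genes. Levels are CPM, the UMIs of a gene scaled to the UMIs of a class in a library, and a range in brackets after a CPM is its exact 95% Poisson interval, which covers counting error only. The cell types of the airway and alveolus were well filled in the CD45- library alone: 896 secretory-like, 1145 ciliated-like, 492 basal-like, 8063 AT2-like and 274 AT1-like cells. The controls together held 24 secretory-like, 86 ciliated-like and 38 AT2-like cells. The secretory-like name was given from 12 markers, 10 of them among the named features, so their level is no separate check of the name. Their summed level was 24197 CPM in the IRI CD45- secretory-like cells and 33325, 33936 and 40471 CPM in those of the controls. The largest parts in the graft cells were SCGB3A1, TFF3 and SCGB3A2, at 9186, 6774 and 5772 CPM. TSPAN8, CYP2F1 and MSMB were at 0.247, 1.98 and 15.6 CPM in the graft cells. The same graft cells carried 20791 CPM of the AT2 markers, against 18752, 7721 and 9889 CPM in the controls. Cell names are running numbers in each library, so barcodes shared between libraries could not be counted.

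Free RNA has to be considered beside every level in the IRI CD45- library. It was not measured by itself, so immune classes are the reference, which does not separate free RNA from doublets. The 1409 T/NK-, B-, plasma- and dendritic-like cells of that library held 761 CPM of SCGB1A1 (462 to 821 CPM by class) and 98.3 CPM of WFDC2. They held 52.2 CPM of PIGR, 40.0 CPM of LCN2, 2.32 CPM of SLPI and 2.03 CPM of DEFB1. In the same classes of the summed IRI CD45+ libraries these levels were 0.159, 10.8, 0.317, 1.11 and 0.833 CPM for the first 5 in the same order, and DEFB1 had 0 UMIs in the second, which lists it. In the summed controls the levels of all 6 were 14.9, 10.7, 4.18, 2.76, 0.985 and 1.61 CPM. For WFDC2 these classes are not an empty reference: plasma-like cells of IRI CD45+ had 32.3 and 33.9 CPM of it, with 0 UMIs of SCGB1A1. SCGB1A1 was found in 64.8% of the 1409 cells of IRI CD45-, at a median depth of 1714 UMIs. A share of cells with an SCGB1A1 UMI thus says little in this library.

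SCGB1A1 was concentrated in the secretory-like cells of the graft. They held 423607 of its 517686 UMIs in the IRI CD45- library, or 81.8%, and SCGB1A1 alone made up 10.46% of all their UMIs (104610 CPM; 104300 to 104930). Of the other epithelial classes, ciliated-like cells had 6381 CPM, basal-like cells 4991 CPM, AT2-like cells 1586 CPM and AT1-like cells 1475 CPM. Outside the epithelium, blood endothelial-like and fibroblast-like cells had 6950 and 6896 CPM. A single cell held 26.3% and 92.1% of the SCGB1A1 UMIs of these non-epithelial classes. The log2 ratio of secretory-like over AT2-like cells was 6.04. AT1-like and AT2-like cells lay 1.94 and 2.08 times above the pooled immune classes, against 137 times for secretory-like cells.

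The SCGB1A1 share per secretory-like cell was uneven. The median graft cell gave 3.74% of its UMIs to SCGB1A1, the interquartile range ran from 0.814% to 13.8%, and the highest cell reached 59.8%. At least 10% of UMIs were SCGB1A1 in 290 of 896 cells (32.4%). The 649 cells with a share of at least 1% (72.4%) held 99.2% of the SCGB1A1 UMIs of the class. High-share cells also occurred outside the class: 59 of 1145 ciliated-like and 127 of 8063 AT2-like cells reached 1%, and these few held 87.6% and 66.5% of the SCGB1A1 of their classes. Without them the ciliated-like level was 867 CPM and the AT2-like level 539 CPM, beside the 761 CPM of the pooled immune classes.

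**Figure D1:**
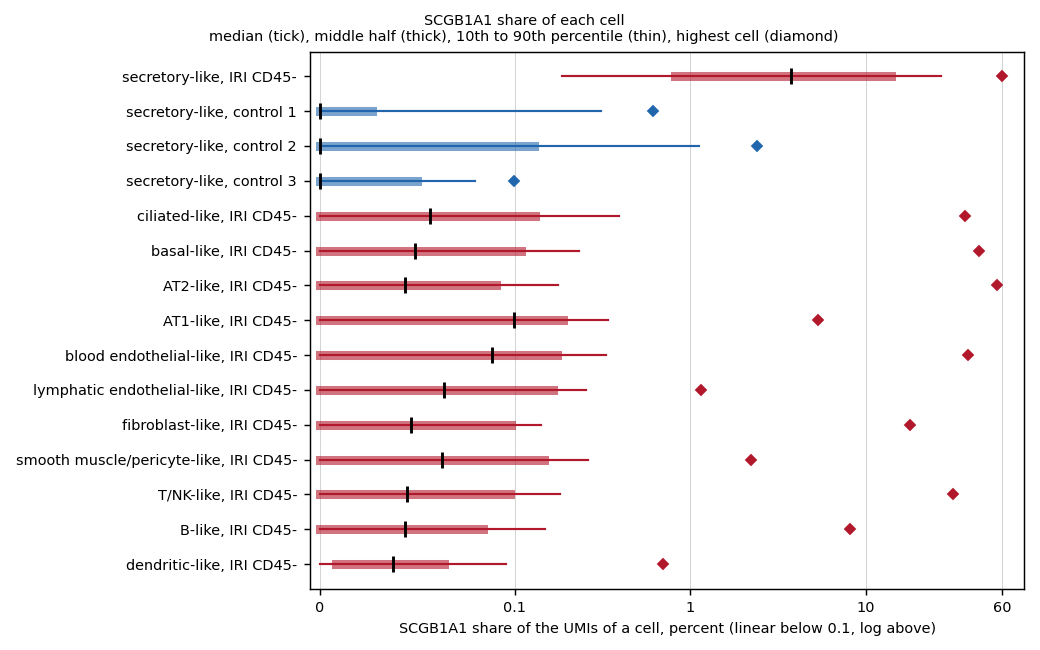
SCGB1A1 share of the UMIs of each cell, in percent (linear below 0.1, log above), by class, with IRI CD45- in red and controls in blue; the tick is the median, bars are the interquartile range and the 10th to 90th percentile, and diamonds the highest cell. Secretory-like graft cells have a median of 3.74%, while the medians of the other graft classes lie at or below 0.0996%.

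The few cells of the controls that were named secretory-like held less SCGB1A1 than those of the graft, but in control 3 the level depends on the naming of 3 other cells. SCGB1A1 was at 104610 CPM in IRI CD45-, against 536 CPM (14 cells), 1790 CPM (7 cells) and 427 CPM (3 cells) in controls 1, 2 and 3. No control cell of the class gave more than 2.40% of its UMIs to SCGB1A1, and 8 of the 24 had any. Of the T/NK-like control cells, 3 in control 3 and 1 in control 2 gave at least 1% of their UMIs to SCGB1A1 and also held SCGB3A1. Counted with the secretory-like cells, they bring control 3 to 29137 CPM (6 cells) and control 2 to 2529 CPM (8 cells). This count was added after seeing the data. The other airway genes of the same cells lay much closer together. WFDC2 was at 4216 CPM in IRI CD45-, against 4608, 4211 and 3846 CPM in the controls. LCN2 was at 1934 CPM in IRI CD45-, against 3108, 2422 and 4822 CPM in the controls. PIGR was at 2066 CPM in IRI CD45-, against 1736, 2492 and 427 CPM in the controls, where control 3 rests on 7 UMIs.

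Other secretory products were set beside them with SCGB1A1 left out of the total (CPM without SCGB1A1). The secretoglobin SCGB3A1 was at 10259 in IRI CD45-, against 15567, 11039 and 25466 in the controls. The trefoil peptide TFF3 was at 7565 in IRI CD45-, against 12201, 12516 and 8733 in the controls. AGR2, a protein folding enzyme of mucous cells, differed the other way from these: it was at 636 in IRI CD45-, against 0 UMIs in all 24 control cells. No control library had the 20 cells of the class required for a test, so these values are a description.

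**Figure D2:**
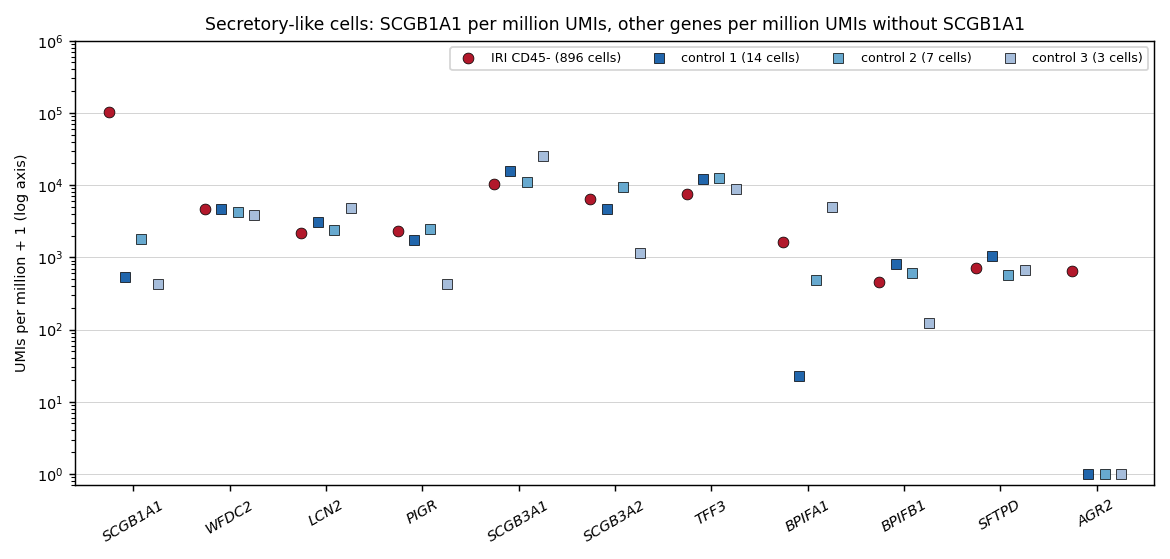
Levels in secretory-like cells of IRI CD45- (896 cells, red) and of controls 1 to 3 (14, 7 and 3 cells, blue), as CPM + 1 on a log axis, with SCGB1A1 left out of the total for the other genes. SCGB1A1 and AGR2 are above all 3 controls, WFDC2 differs little, LCN2 is below the controls and PIGR is within their range.

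WFDC2 was found across the airway and alveolar epithelium. In IRI CD45- it was at 4216 CPM (4153 to 4280) in secretory-like cells, 1589 CPM (1524 to 1655) in basal-like cells and 1232 CPM (1196 to 1268) in ciliated-like cells. AT2-like cells had 296 CPM (289 to 304) and AT1-like cells 267 CPM (209 to 336), and the counting intervals of these 2 overlap. All 5 classes lay above the 98.3 CPM of the immune classes. The controls with at least 20 ciliated-like cells had 527 and 581 CPM, below the graft's 1232 CPM.

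SLPI, the other whey acidic protein gene, had its highest class outside the epithelium. In IRI CD45- it was at 474 CPM (428 to 522) in blood endothelial-like cells, 179 CPM (165 to 193) in ciliated-like cells and 29.6 CPM (24.6 to 35.4) in secretory-like cells. Basal-like cells had 26.5 CPM, and AT2-like cells 5.49 CPM. The blood endothelial-like cells of the controls had 1475, 479 and 1204 CPM, so the same class led in all 4 libraries. Of the endothelial-like cells, 123 of 490 (25.1%) held an SLPI UMI in IRI CD45- at a median of 1137 UMIs per cell, against 71.3%, 57.7% and 63.6% in the controls at medians of 2474, 1995 and 2139 UMIs. After thinning each cell to 500 UMIs, 16.1% of cells had SLPI in IRI CD45-, against 46.3%, 25.4% and 39.4% in the controls. The T/NK-like cells, which should lack SLPI, had a UMI in 0.522% of cells in IRI CD45- and in 0.328% to 0.423% in the controls.

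Within the endothelium SLPI was uneven, and lymphatic endothelial-like cells had little of it. The main graft cluster of blood endothelial-like cells (281 cells) had 984 CPM of SLPI, and the smaller clusters of 167 and 39 cells had 128 and 199 CPM. Those smaller clusters also carried 9154 and 17284 CPM of SCGB1A1, against 1368 CPM in the main one. The AT2 list was the second-best marker list of the cluster of 167 cells. Lymphatic endothelial-like cells had 17.3 CPM of SLPI from 4 UMIs in IRI CD45-, against 4.48, 1.964 and 7.99 CPM in the controls.

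Myeloid cells were a further source of SLPI. In the 2 IRI CD45+ libraries 63.6% and 75.5% of its UMIs lay in unnamed cells, against 26.6% and 21.1% in monocyte-like cells. An unnamed cluster whose best marker list was the neutrophil list had 350 and 807 CPM there. Monocyte-like cells had 127 CPM in IRI CD45- and 44.1 and 39.0 CPM in the 2 IRI CD45+ libraries, and at most 2 such cells occurred in any control. A single cell held 31.7%, 52.2% and 33.3% of those UMIs. In IRI CD45- the level came mainly from a cluster of 67 cells at 510 CPM, against 11.0 CPM in the other 65 cells. These clusters had 133 and 22.6 CPM in IRI CD45+ 1, and 59.0 and 35.4 CPM in IRI CD45+ 2. Over the median cluster, the first cluster's mean log2 fold was 3.63 for the neutrophil markers and 3.40 for the monocyte markers. Control macrophage-like cells had 14.5, 56.8 and 3.92 CPM, and in control 2 these came mainly from 1 cluster at 295 CPM.

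LCN2 was shared between airway, alveolar and myeloid cells. In IRI CD45- it was at 1934 CPM (1892 to 1977) in secretory-like cells and 1726 CPM (1658 to 1795) in basal-like cells, followed by neutrophil-like cells at 834 CPM (748 to 928). Ciliated-like cells had 369 CPM (349 to 389) and AT2-like cells 352 CPM (344 to 360), whose counting intervals overlap. Because AT2-like cells were 53.7% of the library, they held 36.6% of its LCN2 UMIs, against 37.2% in the secretory-like cells.

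The neutrophil-like level of LCN2 differed between the graft libraries. It was 834 CPM in IRI CD45- (304 cells), against 71.1 and 65.8 CPM in IRI CD45+ (877 and 760 cells). The 4, 7 and 4 neutrophil-like cells of the controls held 12, 6 and 6 LCN2 UMIs, which is 2539, 745 and 587 CPM. Those of IRI CD45- also held 1161 CPM of SCGB1A1, against 0 and 2.09 CPM in IRI CD45+. In IRI CD45- their LCN2 was 20.9 times the level of the pooled immune classes, and their SCGB1A1 1.53 times.

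Control fibroblast-like cells also held LCN2, at 242, 92.3 and 120 CPM, against 77.8 CPM from 14 UMIs in the 83 fibroblast-like cells of IRI CD45-. In the controls 22.1%, 8.79% and 9.20% of fibroblast-like cells had an LCN2 UMI, against 0.563%, 0.807% and 1.09% of T/NK-like cells. The highest cell held 19.5%, 19.0% and 15.4% of the UMIs. Macrophage-like cells of the controls had 6.71, 38.5 and 285 CPM, and in control 3 the level rested on a cluster of 148 cells at 772 CPM. That cluster's second-best marker list was the neutrophil list, whose summed level in macrophage-like cells was 1197, 1851 and 3325 CPM in the controls.

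PIGR was highest in secretory-like cells, which held 55.2% of its UMIs in IRI CD45-, against 29.9% in AT2-like cells. In IRI CD45- it was at 2066 CPM (2022 to 2111) in secretory-like cells, 252 CPM (237 to 269) in ciliated-like cells, 207 CPM (201 to 214) in AT2-like cells and 172 CPM (151 to 195) in basal-like cells. The last 3 lay 4.84, 3.98 and 3.29 times above the pooled immune classes, and AT1-like cells, at 43.9 CPM, lay below them. The 20 AT2-like cells of control 1 had 468 CPM, with 11 of 21 UMIs in 1 cell. The 13 and 5 AT2-like cells of controls 2 and 3 had 289 and 0 CPM.

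DEFB1 was low everywhere. In IRI CD45- 250 of its 288 UMIs (86.8%) were in AT2-like cells, at 11.4 CPM (10.1 to 12.9), found in 118 of 8063 cells (1.46%) against 1 of 1409 immune cells. Secretory-like cells had 2.22 CPM from 9 UMIs, and the log2 ratio of secretory-like over AT2-like cells was -2.36, the opposite sign to the other 5 genes. Basal- and AT1-like cells had none, which allows up to 2.10 and 11.0 CPM (3 counts). In the controls fibroblast-like cells held the most DEFB1 UMIs, at 22.5, 11.2 and 26.6 CPM in 7, 16 and 36 cells. The AT2-like cells of controls 1 and 2 were at higher levels of 89.1 CPM (24.3 to 228; 4 UMIs in 20 cells) and 72.2 CPM (14.9 to 211; 3 UMIs in 13 cells). Both lay above the 11.4 CPM of the graft's AT2-like cells, and the 5 AT2-like cells of control 3 held none. The 85.4 CPM of the blood endothelial-like cells of control 1 are 22 UMIs in 1 cell.

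**Figure D3:**
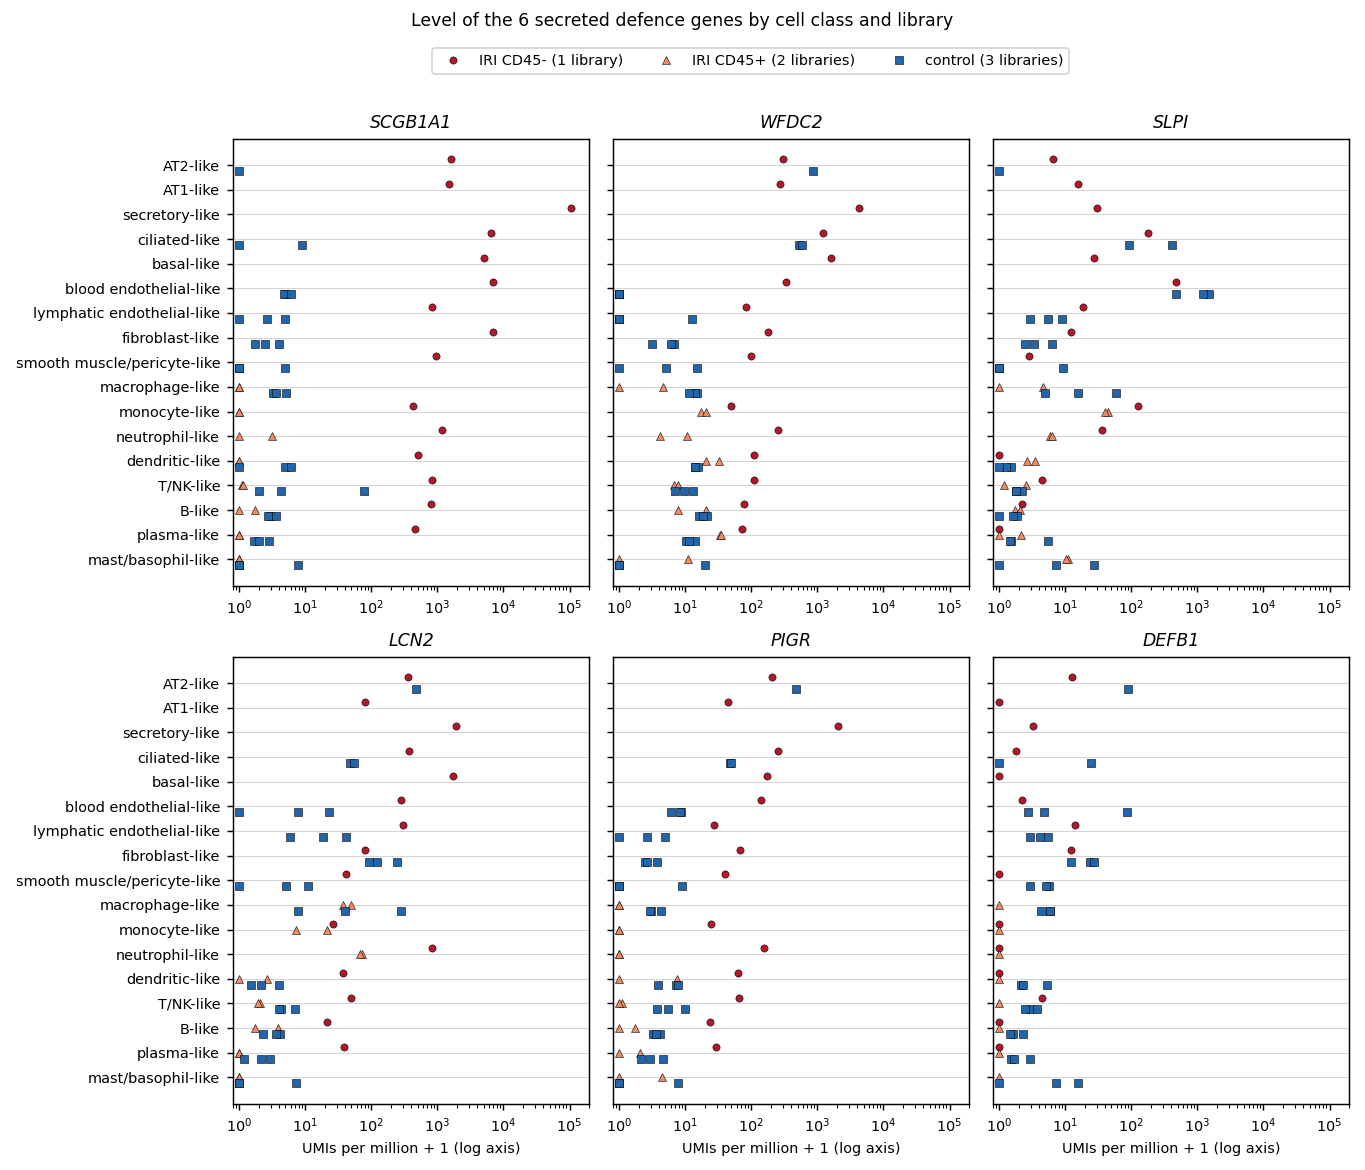
Level of each gene as CPM + 1 (log axis) by class (rows), for the IRI CD45- library (red circles), the 2 IRI CD45+ libraries (orange triangles) and the 3 controls (blue squares), each with at least 20 cells of the class. SCGB1A1, WFDC2 and PIGR are highest in secretory-like cells, SLPI in blood endothelial-like cells of IRI CD45- and of all controls, and DEFB1 stays below 100 in every class drawn, with IRI CD45+ 2 as its only CD45+ library.

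UMIs of several of the genes usually occurred together in secretory-like graft cells. Of the 896 cells, 567 (63.3%) held UMIs of SCGB1A1, WFDC2, LCN2 and PIGR together, and 4 held none of them. The controls had all of them in 4 of 14, 1 of 7 and 1 of 3 cells. These shares can include free RNA and doublets. Of the 1409 cells of the pooled immune classes of IRI CD45-, 11 (0.781%) held all of these genes. Their median was 1714 UMIs per cell, taken over the pooled classes, against 3688 UMIs in the secretory-like cells. The secretory-like over AT2-like log2 ratios were 3.83 for WFDC2, 3.32 for PIGR, 2.46 for LCN2 and 2.43 for SLPI.

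Cells with a higher SCGB1A1 share differed in some partners and not in others. The 896 graft cells were ranked by SCGB1A1 share and split into 4 quartile groups of 224, and the other genes were taken as CPM without SCGB1A1. SCGB3A1 was at 750, 3903, 11048 and 24280 in the lowest to the highest group, and LCN2 at 1320, 1948, 2505 and 2721. The lining protein BPIFA1 was at 366, 1136, 2604 and 2193. WFDC2 was at 4644, 5209, 5062 and 3845, and PIGR at 1968, 2722, 2313 and 2183, with no order. SFTPC, the AT2 surfactant gene, was at 18129, 14818, 13233 and 9730, and the median UMIs per cell were 2767, 3519, 4262.5 and 4424, so depth moved with the ranking. Its part in the pattern was not tested, and all groups come from 1 library.

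**Figure D4:**
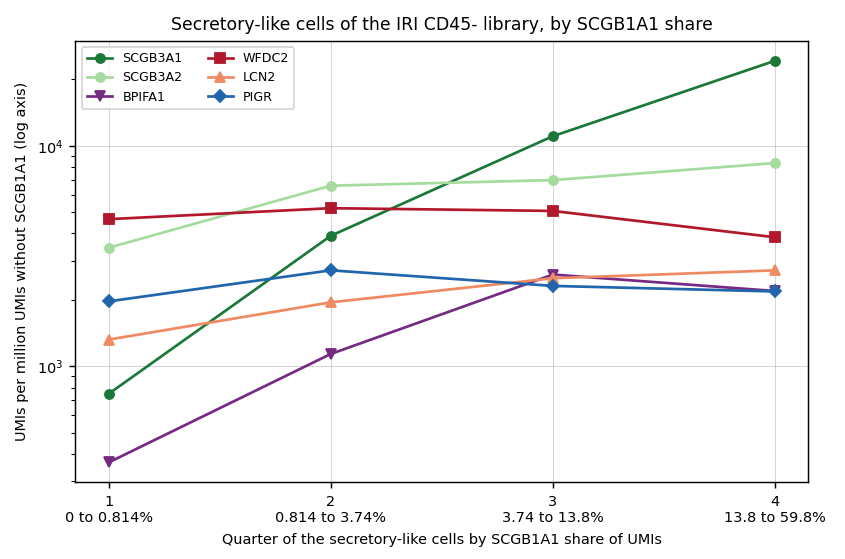
CPM without SCGB1A1 (log axis) in quartile groups of the 896 secretory-like IRI CD45- cells ranked by SCGB1A1 share (224 cells each; share range under each group). SCGB3A1 increases over the groups between 750 and 24280 and LCN2 between 1320 and 2721, while WFDC2 and PIGR have no order.

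A small number of control cells that clustered with T/NK-like cells carried large amounts of SCGB1A1. In control 3, 3 T/NK-like cells held 398, 211 and 129 UMIs, which is 87.9% of the 840 SCGB1A1 UMIs of that library. The gene took 8.09%, 8.29% and 7.49% of their UMIs, above any secretory-like cell of the controls. The same cells had 2, 1 and 1 UMIs of the T-cell gene CD3E, 9, 5 and 21 UMIs of SCGB3A1, and 0, 1 and 3 UMIs of PTPRC, which encodes CD45. In control 2 a T/NK-like cell held 24 UMIs of SCGB1A1 (2.07% of its UMIs) and 27 of SCGB3A1, with 0 UMIs of CD3E and of PTPRC. The markers of these 4 cells thus do not all go with their T/NK-like name.

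Structural classes were compared between the lone IRI CD45- library and the 3 controls by the quasi-likelihood test of edgeR, and p-values were adjusted over all tested genes by the method of Benjamini and Hochberg. The lone library is assumed to vary like the controls. In each of these classes the graft cells lay mainly in other clusters than the control cells. The rises in these comparisons stand beside the levels of the pooled immune classes above. Those levels were also higher for these genes in IRI CD45- than in the controls.

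In blood endothelial-like cells SCGB1A1, WFDC2, LCN2 and PIGR rose, that is 4 of 6 genes, where 17.4% of 7846 tested genes rose, 13.4% fell and 30.8% were called in all. SCGB1A1 was at 6950 CPM in IRI CD45-, against 3.88, 3.68 and 5.06 CPM in the controls (log2 change 10.80 ± 0.43 SE, adjusted p 7.04e-39). A single cell held 26.3% of those graft UMIs, and the 477 cells below a 1% share had 998 CPM. WFDC2 was at 329 CPM in IRI CD45-, against 0 UMIs in all controls, at least 123-fold higher when 3 counts are allowed to the summed controls (adjusted p 8.11e-21). LCN2 was at 277 CPM in IRI CD45-, against 0, 22.1 and 6.75 CPM in the controls (log2 change 5.16 ± 0.52 SE, adjusted p 2.76e-10), a call that DESeq2 did not make. PIGR was at 137 CPM in IRI CD45-, against 7.76, 7.36 and 5.06 CPM in the controls (log2 change 4.65 ± 0.55 SE, adjusted p 4.1e-11). AT2 markers moved with these genes, since their summed level was 53513 CPM in IRI CD45-, against 58.2, 33.1 and 43.9 CPM in the controls. The graft levels of WFDC2, LCN2 and PIGR were 3.35, 6.93 and 2.63 times those of the pooled immune classes. In the main graft cluster of 281 cells these genes were at 124, 106 and 27.2 CPM. They were at 533, 385 and 238 CPM in the cluster of 167 cells, and at 143, 408 and 66.2 CPM in that of 39 cells.

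SLPI, whose highest class this was, did not pass the test there. It was at 474 CPM in IRI CD45-, against 1475, 479 and 1204 CPM in the controls (log2 change -0.87 ± 0.48 SE, adjusted p 0.189). The graft level lay just under the lowest control, but it combined clusters that differed. The main cluster of 281 cells, at 984 CPM, lay within the range of the controls, and those of 167 and 39 cells were at 128 and 199 CPM. Without control 2 the change was -1.24 with an adjusted p of 0.000759, so control 2 decides this call. DEFB1 had 1 UMI in the graft and was not called (adjusted p 0.325). It was called lower without control 2 (log2 change -4.46, adjusted p 0.0102) and with no low-count filter (adjusted p 0.0324), and 22 of its 24 control UMIs lie in 1 cell of control 1.

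In lymphatic endothelial-like cells SCGB1A1, WFDC2 and LCN2, the 3 genes tested, rose, where 28.5% of genes were called, 13.9% up and 14.6% down. LCN2 was at 303 CPM in IRI CD45-, against 40.3, 17.7 and 4.80 CPM in the controls (log2 change 4.201 ± 0.55 SE, adjusted p 4.48e-05). The graft level was 7.57 times that of the pooled immune classes, and 29 of 162 cells held it. AT2 markers moved with these genes here too: their summed level was 10788 CPM in IRI CD45-, against 13.4, 33.4 and 24.0 CPM in the controls. The summed secretory markers were at 372 CPM in IRI CD45-, against 291, 240 and 240 CPM in the controls. The part of either in the LCN2 change was not tested. SCGB1A1 was at 831 CPM in IRI CD45-, against 3 UMIs in all controls, a ratio of 376 (127 to 1840 by counting error), and WFDC2 was at 82.2 CPM in IRI CD45-, against 0, 11.8 and 0 CPM in the controls. These graft levels were 1.09 and 0.837 times those of the pooled immune classes.

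In fibroblast-like cells SCGB1A1, WFDC2 and PIGR rose, 3 of 6 genes, where 17.4% of genes were called, 7.82% up and 9.59% down, and the median log2 change of all genes was -1.16. SCGB1A1 was at 6896 CPM in IRI CD45-, against 0.726, 1.48 and 2.99 CPM in the controls (log2 change 11.70 ± 0.32 SE, adjusted p 6.65e-08). A single graft cell held 1143 of the 1241 UMIs, and without it the level was 565 CPM. The same 83 cells had 22 of their 32 WFDC2 UMIs and 8 of 12 PIGR UMIs in 1 cell each. LCN2 was not called (log2 change -0.89 ± 1.06 SE, adjusted p 0.582), nor were SLPI (adjusted p 0.388) and DEFB1 (adjusted p 0.655), each with 2 UMIs in the graft. SLPI was called higher in this class under 4 alternatives that changed the cells or clusters, for example at resolution 2 (log2 change 5.46, adjusted p 2.58e-05).

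In smooth muscle/pericyte-like cells SCGB1A1, WFDC2, LCN2 and PIGR rose, the 4 genes tested, where 34.3% of genes were called, 19.4% up and 14.9% down. Their levels in IRI CD45- were 955, 97.1, 40.3 and 38.5 CPM, against at most 3.94, 13.8, 9.86 and 7.88 CPM in any control. The graft levels of WFDC2, LCN2 and PIGR were 0.988, 1.01 and 0.738 times those of the pooled immune classes. The log2 changes were 3.79 ± 0.62 SE for WFDC2, 2.96 ± 1.05 SE for LCN2 and 3.46 ± 1.22 SE for PIGR, and SCGB1A1 gave a ratio of 458 (126 to 3793 by counting error, 2 control UMIs). The calls of SCGB1A1 and WFDC2 held under every alternative run. LCN2 was not called with the stricter cell filter (adjusted p 0.0941), PIGR was not tested there, neither was tested without control 3, and DESeq2 gave neither an adjusted p.

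**Figure D5:**
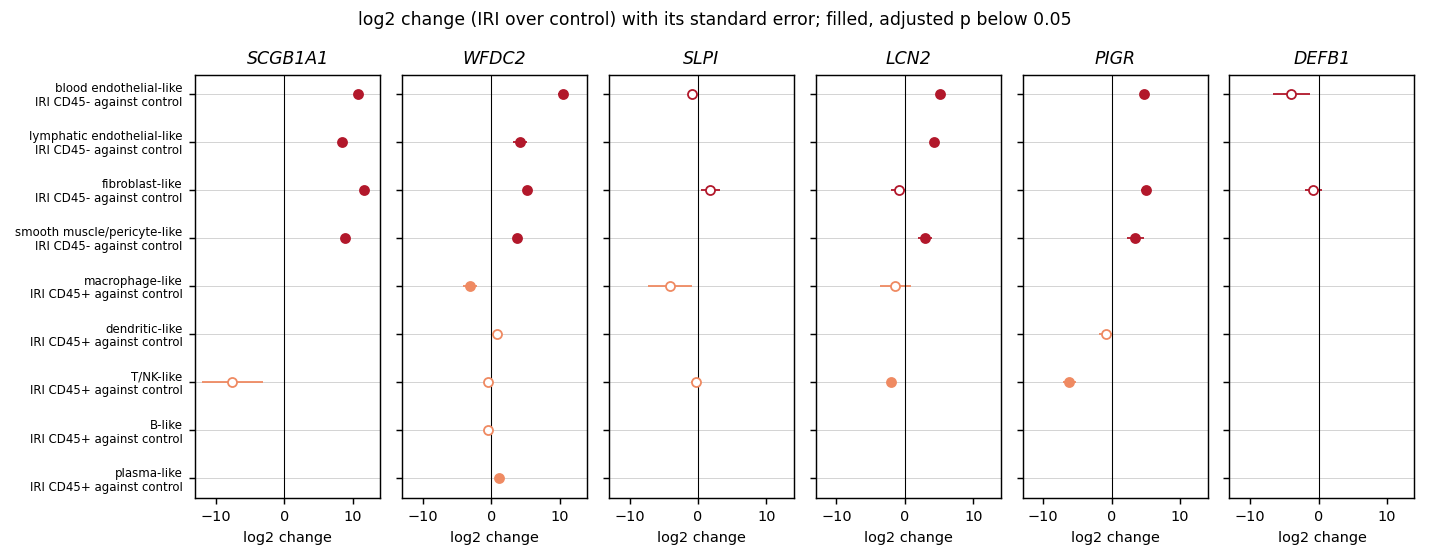
log2 change (IRI over control) with its standard error for each gene (panels) and comparison (rows), from edgeR; red rows compare IRI CD45- (1 library) and orange rows IRI CD45+ (2 libraries) with 3 controls, and filled points have an adjusted p below 0.05. SCGB1A1, WFDC2, LCN2 and PIGR lie to the right in most structural classes, and SLPI and DEFB1 are filled nowhere; points whose groups hold 0 to 3 UMIs, such as WFDC2 in blood endothelial-like cells, depend on the prior count.

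Immune classes were compared between the 2 IRI CD45+ libraries and the 3 controls with the same test. DEFB1 was not tested in them because it is not listed in every library. In T/NK-like cells LCN2 and PIGR fell, 2 of 5 tested genes, where 34.4% of 14562 genes fell, 31.3% rose and 65.7% were called in all, so the share is near the background. The IRI CD45+ and control cells lay mainly in different clusters. PIGR was at 0.0988 and 0 CPM (1 UMI) in IRI CD45+, against 8.77, 2.76 and 4.57 CPM in the controls, a ratio of 0.0117 (0.000294 to 0.0661 by counting error; adjusted p 5.82e-05). LCN2 was at 1.09 and 0.919 CPM in IRI CD45+, against 6.07, 3.29 and 2.98 CPM in the controls (log2 change -1.97 ± 0.48 SE, adjusted p 0.00259). The LCN2 call was lost under 3 alternatives that changed the cells or clusters, with adjusted p of 0.112, 0.0925 and 0.0547. DEFB1 was at 0 UMIs in IRI CD45+ 2, the library that lists it, against 1.91, 1.42 and 2.68 CPM in the controls, at least 4.32-fold lower when 3 counts are allowed to that library. A single cell of control 1 held 51 of its 78 PIGR UMIs, and a single cell held 36 of its 54 LCN2 UMIs. Epithelial markers moved with them: the summed AT2 markers were at 24.7 and 24.7 CPM in IRI CD45+ T/NK-like cells, against 157, 82.6 and 115 CPM in the controls, and their part was not tested.

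SCGB1A1 in T/NK-like cells shows how 1 library can decide a call. It had 1 UMI in each IRI CD45+ library, against 9, 37 and 766 UMIs in controls 1, 2 and 3, and did not pass the test (adjusted p 0.229). Without control 3, most of whose UMIs come from the 3 cells above, the log2 change was -4.06 with an adjusted p of 0.00233. WFDC2 (adjusted p 0.168) and SLPI (adjusted p 0.749) were not called.

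WFDC2 was the gene tested in most immune classes, and its changes differed in sign. In plasma-like cells it rose, as the 1 gene tested, where 35.5% of tested genes were called and 14.6% rose. It was at 32.3 and 33.9 CPM in IRI CD45+, against 9.12, 12.9 and 10.55 CPM in the controls (log2 change 1.12 ± 0.27 SE, adjusted p 0.00511). The summed secretory markers there were at 30.03 and 29.5 CPM in IRI CD45+, against 25.7, 31.6 and 29.2 CPM in the controls, and the AT2 markers at 18.5 and 23.0 CPM in IRI CD45+, against 26.0, 32.7 and 26.2 CPM in the controls. The secretory markers overlapped between the groups, and the AT2 markers were lower in IRI CD45+. Of the secretory markers, 5 are not listed in IRI CD45+ 1 and 1 is not listed in IRI CD45+ 2, and such genes add 0 to a sum.

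In macrophage-like cells WFDC2 fell, 1 of 3 tested genes, where 24.8% of genes were called, 10.1% up and 14.7% down. It was at 0 and 3.64 CPM (1 UMI) in the 33 cells of each IRI CD45+ library, against 13.8, 13.3 and 10.3 CPM in the controls (ratio 0.119, 0.00299 to 0.675 by counting error; adjusted p 0.0425). Leaving out any 1 control, or IRI CD45+ 1, ended this call, with adjusted p from 0.0598 to 0.259. SLPI (adjusted p 0.409) and LCN2 (adjusted p 0.698) were not called.

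In dendritic-like cells edgeR called 0 of 2 genes tested, where 36.4% of 9950 genes were called, 15.5% up and 20.8% down. WFDC2 was at 19.7 and 31.6 CPM in IRI CD45+, against 13.2, 14.6 and 13.1 CPM in the controls (unadjusted p 0.028, adjusted p 0.0692), and PIGR had an adjusted p of 0.508. At an unadjusted p under 0.05 edgeR would call 1 of the 2, and DESeq2 called 0. In B-like cells, where 45.8% of genes were called, 20.6% up and 25.2% down, edgeR and DESeq2 called 0 of 1 gene: WFDC2 was at 6.87 and 19.9 CPM in IRI CD45+, against 15.3, 20.7 and 17.3 CPM in the controls (unadjusted p 0.197, adjusted p 0.293). None of the 6 passed the low-count filter in mast/basophil-like cells, where 27.4% of 2685 genes were called, 12.6% up and 14.8% down, and monocyte- and neutrophil-like cells could not be compared because no control held 20 of them.

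Beyond the 6, a list of 48 other mucosal defence genes was used for the same comparisons, 37 of which have a named feature. Of all genes tested, 17.4% rose and 13.4% fell in blood endothelial-like cells, and 19.4% and 14.9% in smooth muscle/pericyte-like cells. These shares were 13.9% and 14.6% in lymphatic endothelial-like cells, and 7.82% and 9.59% in fibroblast-like cells. In blood endothelial-like cells 14 of 22 tested list genes rose and 3 fell (median log2 change 2.09, against -0.09 over all genes), led by the AT2 and secretory products SFTPA1, SCGB3A2 and SFTPD and the epithelial transcription factor ELF3. In smooth muscle/pericyte-like cells 11 of 16 rose and 2 fell, and the complement gene C3 was among those that fell (138 CPM after scaling in IRI CD45-, against 1930 CPM in the controls; log2 change -3.79 ± 0.43 SE, adjusted p 1.44e-16). In lymphatic endothelial-like cells 8 of 17 rose and 0 fell by edgeR. In fibroblast-like cells 5 of 23 rose and 1 fell, with the interleukin receptor IL1R1 higher (log2 change 2.77 ± 0.22 SE, adjusted p 2.19e-05) and C3 lower (log2 change -1.17 ± 0.24 SE, adjusted p 0.00755).

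In the immune classes the counts of list genes are given beside the shares of all genes called. In T/NK-like cells 6 of 22 rose and 9 fell, near the 31.3% and 34.4% of all genes. CEBPD, a transcription factor of acute inflammation, was higher there (log2 change 1.63 ± 0.14 SE, adjusted p 4.37e-07) and C3 lower (log2 change -3.33 ± 0.39 SE, adjusted p 0.000246). In plasma-like cells 2 of 12 rose and 3 fell, near the 14.6% and 21% of all genes. JCHAIN, the joining chain of the IgA that PIGR carries, was among those that fell: it was at 8255 CPM after scaling in IRI CD45+, against 12224 CPM in the controls (log2 change -0.57 ± 0.10 SE, adjusted p 0.000502). In macrophage-like cells 0 of 16 rose and 3 fell by edgeR, where 10.1% of all genes rose and 14.7% fell: JCHAIN, the lipocalin receptor gene SLC22A17 and lysozyme, LYZ. In dendritic-like cells 3 of 11 rose and 3 fell, where 15.5% and 20.8% of all genes did. In B-like cells 2 of 9 rose and 3 fell, where 20.6% and 25.2% did, and in mast/basophil-like cells edgeR called 0 of 3 list genes, with unadjusted p of 0.304, 0.694 and 0.733.

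The genes with the pattern most like each of the 6 were sought over 28 clusters of IRI CD45- with at least 50 cells, by Pearson correlation of log2 CPM across 7592 genes. All clusters share 1 library and any free RNA in it, so the correlations are descriptions. SCGB1A1 was most like TFF3 (r 0.92), WFDC2 (r 0.86) and SCGB3A1 (r 0.85). WFDC2 was most like S100A2 (r 0.93), HSD17B2 and KRT19, and PIGR most like the retinaldehyde dehydrogenase ALDH1A1 (r 0.92) and the junction gene CLDN4. LCN2 was most like MPZL2 (r 0.85), ENTPD3 and ALDH1A1. SLPI stood apart: it was most like PLEKHG3 (r 0.73) and the arterial connexin gene GJA5 (r 0.69), and its r with SCGB1A1, WFDC2 and PIGR was 0.17, 0.00 and 0.03. Its r with LCN2 was 0.35 and with DEFB1 -0.22. DEFB1 reached no more than 0.65, with SLC1A2.

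In the RefSeq annotation of Sscrofa11.1, WFDC2 and SLPI lie on chromosome 17 at 47816452 to 47824087 and 47595804 to 47598364, 218.1 kb apart with 11 protein-coding genes between them. SCGB1A1 lies on chromosome 2 at 9297282 to 9302204, LCN2 on chromosome 1 at 268609975 to 268614651 and PIGR on chromosome 9 at 67553094 to 67574698. The annotation has 2 genes with the symbol DEFB1, on chromosome 15 at 38076057 to 38077899 and on an unplaced sequence, and the deposited tables do not say which was counted, so DEFB1 levels are uncertain.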

How the data were processed

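Per the labels' protocols, lung was dissociated, strained and freed of red cells, the DNBelab C Series HT chemistry was used for the libraries, and the sequencer was a DNBSEQ-T7. The submitters' processing notes name Sscrofa11.1, Seurat 5.5.3 and R 4.2.2, and the aligner is not given in the sources used here. The authors deposited raw UMI counts per gene and cell, written by PISA per the file headers, and these counts were used unchanged. Ensembl IDs took a symbol where the reference table gave 1 (139 of 17062).

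Cells with at least 500 UMIs, 200 genes and at most 20% mitochondrial counts were kept. They were clustered with scanpy 1.11.5 (2000 variable genes without the 6 genes, 30 components, 15 neighbours, resolution 1) and named from 19 marker lists. The naming rules were revised after the clusters were seen. Scrublet called 1, 3 and 5 cells in the controls, 0 in IRI CD45- and 2 and 1 in IRI CD45+, so it did not work as a filter, and no doublets were removed. UMIs were summed per class and library, libraries with at least 20 cells were tested with edgeR 4.0.16 (TMM, quasi-likelihood, low-count filter, adjusted p below 0.05), and DESeq2 1.42.0 was an alternative. DEFB1 was not tested in the CD45+ comparisons. The tests were checked on simulated counts, and the outcome of that check is not given here.

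The genes, the lists and the settings were chosen with earlier results of these data known. Named beside the 6 are up to 4 list genes with the smallest p per comparison and the genes most correlated with each member. The labels do not say that the libraries of a group are separate animals, so p-values measure the spread between libraries.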

Additional observations from a re-analysis of the deposited data

Results flagged for a closer look

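In 6 cases every IRI library lay above every control in one class and below every control in another, and none of these differences between classes was tested. The LCN2 and SLPI cases rest on the lone IRI CD45- library. For WFDC2 in IRI CD45+ against control, the log2 change was 0.86 in dendritic-like cells and -3.07 in macrophage-like cells, 3.93 apart, and 1.12 in plasma-like cells, 4.19 above macrophage-like cells. The macrophage-like value rests on 1 UMI in 66 IRI cells.

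For LCN2 in IRI CD45- against control, the log2 change in fibroblast-like cells was -0.89. It was 6.05 higher in blood endothelial-like cells (5.16), 5.09 higher in lymphatic endothelial-like cells (4.201) and 3.85 higher in smooth muscle/pericyte-like cells (2.96). The control fibroblast-like cells held LCN2 themselves, at 92.3 to 242 CPM. The graft fibroblast-like level was 77.8 CPM, and its counting interval (42.5 to 131) takes in the lowest control. In blood endothelial-like, lymphatic endothelial-like and smooth muscle/pericyte-like graft cells LCN2 was 6.93, 7.57 and 1.01 times the level of the pooled immune classes. For SLPI the fibroblast-like change of 1.78, from 2 graft UMIs, was 2.65 above the blood endothelial-like change of -0.87. The blood endothelial-like graft clusters behind that change had 984, 128 and 199 CPM of SLPI. The class had 474 CPM (428 to 522) in the graft, an interval that takes in the 479 CPM of the lowest control.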

How the results depend on the processing

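Of the summary values, 114 of 142 alternatives kept their value within the limits set, and of the single-gene values 299 of 376 did. The log2 ratio of secretory-like over AT2-like cells moved with the cells kept and the clustering. For SCGB1A1 it was 5.84 at resolution 2, 7.13 with the members among the clustering genes, 6.57 with the stricter cell filter and 6.28 without the top 6% of doublet scores. For PIGR it was 3.26, 3.58, 3.50 and 3.42 in the same order. For WFDC2 it was 4.16 with the members, 4.04 with the stricter filter and 3.90 without high doublet scores, for LCN2 2.51 without high doublet scores, and for DEFB1 -3.38 with the members and -3.95 with the stricter filter.

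The members called in T/NK-like cells were 1 at resolution 2, with the members among the clustering genes and with the stricter filter. In macrophage-like cells they were 0 with DESeq2 and at resolution 2, and 0 to 1 when a library was left out. In smooth muscle/pericyte-like cells they were 2 (SCGB1A1 and WFDC2) with DESeq2 and with the stricter filter, and 2 to 4 when a library was left out. Leaving out a library gave 0 to 1 in dendritic-like and in B-like cells.

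Directions turned for values that were not called. WFDC2 in T/NK-like cells was 0.22 at resolution 2, 0.33 with the members, 0.020 with the stricter filter and 0.15 without high doublet scores. In fibroblast-like cells the stricter filter gave 2.12 for DEFB1 and 0.91 for LCN2. Leaving out 1 library gave -1.52 to 0.098 for WFDC2 in B-like cells, -2.17 to 0.71 for SLPI in T/NK-like cells, -6.48 to 0.23 for PIGR in dendritic-like cells and -1.91 to 0.89 for LCN2 in macrophage-like cells. SLPI in fibroblast-like cells was called under 4 alternatives, with 5.46 at resolution 2 and 6.11 without high doublet scores. The cause was not tested.

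Genes called over all genes fell to 989 (DESeq2) of 2418 in blood endothelial-like, 698 of 1990 in lymphatic, 949 of 2444 in smooth muscle/pericyte-like and 1397 of 2320 in fibroblast-like cells, where resolution 2 gave 4124. They were 1713 of 2638 in macrophage-like cells with the replicate block and 451 of 735 in mast/basophil-like cells without control 3. Same-numbered libraries did not deviate together (correlations of -0.04 to 0.05). With only 2 IRI CD45+ libraries, these correlations cannot show which libraries pair. With the replicate block the members called were 2 in macrophage-like cells, where LCN2 was 1.28, and 3 in T/NK-like cells. The levels without the top cell, and the control SCGB1A1 levels with the T/NK-like cells, were added after seeing the data.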

Other observations

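Some clusters stayed unnamed and still held the genes. A cluster of 175 IRI CD45- cells with SCGB3A2 and S100A2 among its leading genes had 15049 CPM of SCGB1A1, 1049 CPM of WFDC2, 614 CPM of LCN2 and 561 CPM of PIGR. A cluster led by PLBD1, LTF and IL1R2 had 803 CPM of SLPI in IRI CD45- (61 cells) and 350 and 807 CPM in the IRI CD45+ libraries (76 and 127 cells), with 237, 193 and 130 CPM of LCN2. A cluster of 185 IRI CD45- cells with IL6 and PDGFRB among its leading genes had 204 CPM of SLPI.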
